A study of Arabidopsis thaliana with 12 samples.

Results

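The endoplasmic reticulum (ER) folding and quality control genes of *Arabidopsis thaliana* leaves were followed across an autoimmune line, 2 suppressors of it and the wild type. The set held 38 genes, chosen by name from the known machinery: the BIP chaperones and their partners, calreticulins and calnexins, protein disulfide isomerases, the translocation channel, ER-associated degradation (ERAD) and the sensors of unfolded proteins. All 38 were found by their AGI codes among the 28496 genes of the deposited table. *ADR1-L2 DV* is the *adr1-l2-4* mutant carrying *pADR1-L2::ADR1-L2 D484V*, an activation mimic of the helper NLR (nucleotide-binding leucine-rich repeat immune receptor) ADR1-L2 under its own promoter. *sadr1-26.6* and *sadr1-30.4* (the mutants numbered 26.6 and 30.4) carry the same transgene in the same background and each has a mutation in *SADR1* (AT4G36150), which encodes an NLR with a TIR domain. Both came from a mutagenesis screen and each is a single recovered line. Col-0 is the wild type in which all were made. Plants were grown in short days and were not treated, and no source used here gives their age. The labels list 12 leaf samples, 3 from independent experiments for each of the 4 genotypes, and a sample held leaves pooled from several plants.

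The table gives 1 whole number per gene and genotype, in columns headed RPKM that were treated here as read counts combined over samples. The column totals lay between 20013826 and 21277026. With 1 value per genotype, spread between plants or experiments could not be measured from these columns. No test between genotypes was made. All statements are therefore about these 4 combined values. A level is given as scaled reads, which are reads divided by a factor that puts the 4 genotypes on 1 scale. A difference is given as the log2 ratio of scaled reads, each with 1 read added, and the bounds in parentheses are 95% intervals that cover counting error only. A gene was counted as higher or lower when its ratio was at least 1.5-fold. For the genotypes themselves, *ADR1-L2* had 7258 scaled reads in *ADR1-L2 DV*, 3511 in *sadr1-26.6*, 1916 in *sadr1-30.4* and 1193 in Col-0, and the defense marker *PR1* had 20480.2 scaled reads in *ADR1-L2 DV*, 6417 in *sadr1-26.6*, 2071 in *sadr1-30.4* and 11920.0 in Col-0. *PR1* was thus lower in both suppressors than in Col-0. The summed reads of 4 mesophyll markers were 1040260 in *ADR1-L2 DV*, 1362213 in *sadr1-26.6*, 1442451 in *sadr1-30.4* and 1342547 in Col-0, and both root markers were at 0 in every genotype. Markers of other leaf cells also differed: the trichome gene *GL2* had 80.7 scaled reads in *ADR1-L2 DV*, 72.3 in *sadr1-26.6*, 35.1 in *sadr1-30.4* and 37.4 in Col-0, the guard cell lineage gene *FAMA* had 334 scaled reads in *ADR1-L2 DV*, 254 in *sadr1-26.6*, 246 in *sadr1-30.4* and 226 in Col-0, and the phloem gene *SUC2* had 3453 scaled reads in *ADR1-L2 DV*, 5623 in *sadr1-26.6*, 4911 in *sadr1-30.4* and 5539.8 in Col-0. The epidermal gene *ATML1* had 1230.2 scaled reads in *ADR1-L2 DV*, 1727 in *sadr1-26.6*, 1418 in *sadr1-30.4* and 1356 in Col-0, and *KNOLLE* of dividing cells had 19.5 scaled reads in *ADR1-L2 DV*, 24.8 in *sadr1-26.6*, 34.1 in *sadr1-30.4* and 63.4 in Col-0. *CYCB1-1*, also of dividing cells, and the flower genes *AG* and *AP3* had at most 32.4 scaled reads in any genotype.

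Secreted and membrane proteins, cell surface immune receptors among them, enter the ER through the SEC61 channel, are N-glycosylated and are folded by BIP, by the calnexin and calreticulin lectins and by disulfide isomerases. Proteins that fail are returned for another round of folding by the glucosyltransferase UGGT or are passed to ERAD. When unfolded proteins accumulate, IRE1 splices the *bZIP60* messenger RNA and bZIP28 is released from the membrane, and both transcription factors then raise the genes of the folding machinery. Leaves that start systemic acquired resistance are known to raise many of these same genes, and pathogenesis-related proteins pass through the ER.

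Many of the folding genes had lower levels in the 2 suppressors than in either of the other genotypes, 18 of the 38 in both suppressors, while *ADR1-L2 DV* and Col-0 were close to each other. In *sadr1-26.6*, 20 of the 38 genes were lower than in Col-0 and none was higher, against 3.7% lower and 3.44% higher among all 15347 genes with at least 50 scaled reads on average, a floor that all 38 passed. In *sadr1-30.4*, 20 of the 38 were lower than in Col-0 and none was higher, against 3.67% lower and 1.62% higher among all genes. The median of the 38 log2 ratios was -0.63 in *sadr1-26.6* and -0.66 in *sadr1-30.4*, beside medians of 0.01 over all genes in either comparison. In all, 19 genes were lower than Col-0 in both suppressors. The joint share over all genes was not counted for the 19 or the 18. It cannot exceed 3.67%, the smaller of the 2 single shares. Both sets of ratios use the same Col-0 value, so they are not separate evidence. The 38 were also chosen with earlier results of these data known, so the contrast with all genes describes the set and is not a test.

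Between *ADR1-L2 DV* and Col-0 the picture was different. Only *CRT3* and *IRE1A* of the 38 were higher in *ADR1-L2 DV* and none was lower, against 12.3% higher and 14.8% lower among all genes. The members' median log2 ratio was 0.03, beside 0.01 over all genes, and 32 of the 38 lay within 0.32 of 0 on the log2 scale, which is called level here. Of all genes, 26.9% had a ratio at or below -0.3 and 74.9% at or below 0.3. Against *ADR1-L2 DV*, 23 of the 38 were lower in *sadr1-26.6* (12.9% of all genes were lower and 15.2% higher) and 25 were lower in *sadr1-30.4* (16.1% of all genes were lower and 17.6% higher), with none higher in either. The medians of these ratios were -0.73 for *sadr1-26.6* and -0.79 for *sadr1-30.4*, beside 0.00 over all genes in both. Of the 19 genes lower than Col-0 in both suppressors, 18 were also lower than *ADR1-L2 DV* in both. Both comparisons use the same suppressor values, and the median ratio of *ADR1-L2 DV* over Col-0 in the 19 was 0.01. The 2 comparisons are therefore not separate evidence. Between the 2 suppressors, none of the 38 was higher or lower in *sadr1-30.4* than in *sadr1-26.6*, where 2.84% of all genes were higher and 3.69% lower, and 36 of the 38 were level. Of all genes, 13.3% had a ratio at or below -0.3 and 88.9% at or below 0.3, so most genes lay close to 0 in this pair. The smaller differences leaned one way: 29 of the 38 ratios of *sadr1-30.4* over *sadr1-26.6* were below 0, 14 with a counting interval wholly below 0 and none wholly above it, and the median was -0.08, beside -0.03 over all genes. Of all genes, 54.4% had a ratio at or below 0, so a lean of this direction was partly shared by all genes. Intervals that exclude 0 were not counted over all genes.

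As a share of the reads, the 38 genes made up 0.740% of the *ADR1-L2 DV* column (95% Clopper-Pearson interval 0.736 to 0.743%), 0.358% of the *sadr1-26.6* column (0.355 to 0.361%), 0.342% of the *sadr1-30.4* column (0.339 to 0.344%) and 0.608% of the Col-0 column (0.604 to 0.611%). On the scaled reads, the sum of the 38 had a log2 ratio to Col-0 of 0.07 in *ADR1-L2 DV*, while the ratio of *sadr1-26.6* was -0.72 and that of *sadr1-30.4* was -0.81. The share and the scaled sum differ for *ADR1-L2 DV* because the scaling factors, 1.18 for *ADR1-L2 DV* and 0.963 for Col-0, lie further apart than the column totals, 21277026 and 20148132 reads, and scaling by the totals would put every log2 ratio of *ADR1-L2 DV* over Col-0 higher by 0.21. The members' median would then be 0.24, and 12 of the 14 members that lay below 0 in that comparison would lie above it. A lower level in leaf tissue can be fewer cells of a type or less RNA per cell, which cannot be told apart here.

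**Figure D1:**
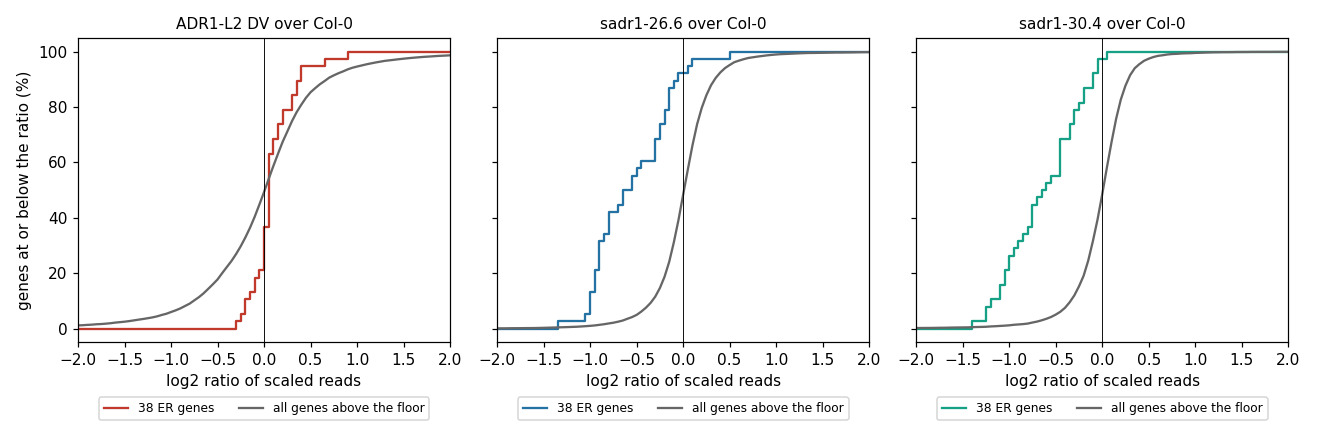
Share of genes (%, vertical axis) at or below each log2 ratio of scaled reads (horizontal axis) for *ADR1-L2 DV*, *sadr1-26.6* and *sadr1-30.4* over Col-0, with the 38 ER genes as coloured steps and the 15347 genes above the floor as grey lines. The steps lie left of the grey line in both suppressors, with medians of -0.63 and -0.66, and cross it near 0 in *ADR1-L2 DV*, where the 38 ratios ran between -0.34 and 0.90.

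The promoters are shown because many of the genes differed together between genotypes. Windows of 250 bases before to 50 bases after the annotated start were read from the TAIR10.1 genome for 27443 protein-coding genes, the 38 included, and searched on both strands for the ER stress response element (ERSE, CCAAT and CCACG with 9 bases of any kind between them), ERSE-II (ATTGG, any base, then CCACG) and the core TGACGTG found in sites bound by bZIP60 and bZIP28. ERSE was found in 8 of the 38 and in 0.397% of all windows, TGACGTG in 9 of the 38 and in 3.41% of all, and ERSE-II in *BIP2* alone of the 38 and in 0.0692% of all. At least 1 of the 3 elements was present in 12 of the 38 and in 3.77% of all windows. Of the 19 genes lower than Col-0 in both suppressors 10 held an element, and of the other 19 genes 2 did, *UGGT* and *HRD3A*. The lower genes without an element were *BIP1*, *BIP3*, *ERDJ3A*, *ERDJ3B*, *SDF2*, *CRT1b*, *PDIL1-3*, *PDIL2-1* and *HRD1B*. Among them, *BIP3* had the lowest suppressor ratios to Col-0 of the 38. Matches upstream of the start were found in 10 genes, 8 of them among the 19 lower genes. Stretches are printed for 7 of the 10, and *PDIL1-1* (TGACGTG at -204), *PDIL2-2* (TGACGTG at -21) and *ERO1* (TGACGTG at -78), all among the 19 lower genes, are not shown. The printed stretches run 5′ to 3′ on the strand of the gene, from TAIR10.1 (RefSeq annotation), with the matches on either strand in capitals.
SHD, chr4:12556059-12556115, minus strand: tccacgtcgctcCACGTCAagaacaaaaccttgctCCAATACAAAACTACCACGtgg
AT4G16660, chr4:9376629-9376698, plus strand: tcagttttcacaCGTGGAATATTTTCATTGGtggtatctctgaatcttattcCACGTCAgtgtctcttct
P58IPK, chr5:750030-750072, plus strand: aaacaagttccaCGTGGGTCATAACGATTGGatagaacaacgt
PDIL1-2, chr1:29126572-29126614, plus strand: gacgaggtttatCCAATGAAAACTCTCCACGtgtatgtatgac
CRT1a, chr1:21092710-21092818, minus strand: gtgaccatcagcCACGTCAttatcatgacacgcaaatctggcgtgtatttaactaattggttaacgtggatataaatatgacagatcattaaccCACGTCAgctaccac
UGGT, chr1:26841510-26841549, plus strand: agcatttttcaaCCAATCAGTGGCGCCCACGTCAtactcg
HRD3A, chr1:6282154-6282196, minus strand: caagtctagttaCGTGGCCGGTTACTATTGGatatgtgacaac

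The first 5 of these sequences belong to genes that were lower than Col-0 in both suppressors and the last 2 to genes that were not. *SHD*, *AT4G16660* and *UGGT* hold an ERSE and a TGACGTG match, and in *UGGT* the 2 matches share bases. *CRT1a* holds TGACGTG at -97 and -15 and no ERSE, where -1 is the base before the start. In *CNX1*, *PDIL1-1* and *BIP2* an ERSE or ERSE-II match began after the annotated start: at base 22 in *CNX1*, at base 12 in *PDIL1-1* and at base 21 in *BIP2*. In *CNX1* and *BIP2* this match also shares bases with a TGACGTG match. The W-box core TTGAC, bound by WRKY factors of the defense response, was in 23 of the 38 windows and 50.5% of all, in 10 of the 19 lower genes and 13 of the other 19. The TL1 element (CTGAA followed directly by GAAGAA) is known from ER genes that depend on the defense regulator NPR1. It was in none of the 38 and in 0.186% of all windows. Its inner run of 3 GAA repeats was in 6 of the 38 and in 6.35% of all, in 5 of the 19 lower genes and 1 of the other 19. A TTGAC match can share bases with a TGACGTG match, as it does in *SHD*. These are matches of letters in a window and carry no measurement of binding.

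**Figure D2:**
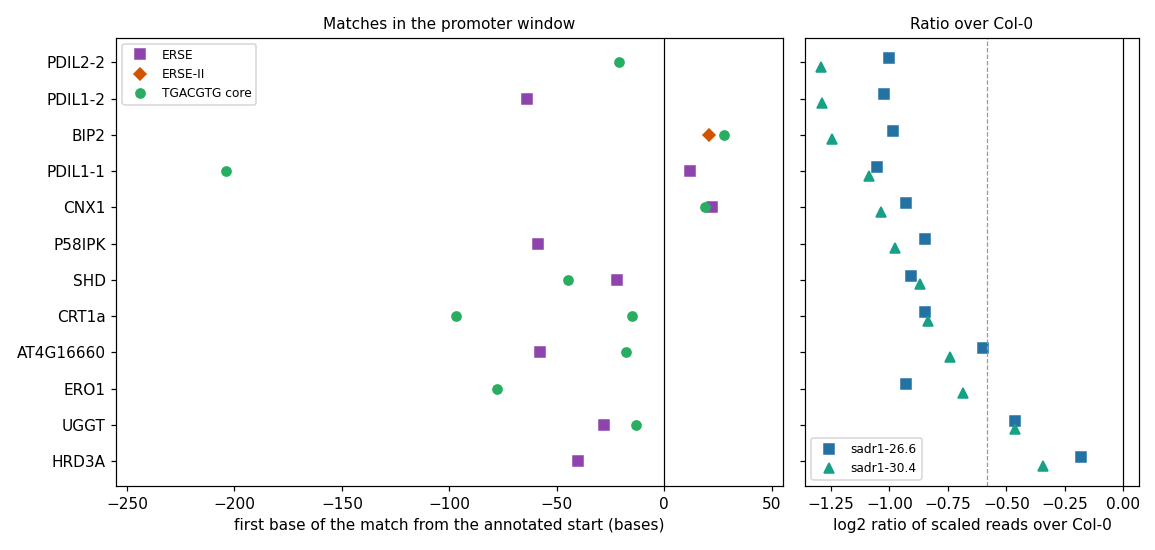
Left, first base of each ERSE, ERSE-II or TGACGTG match relative to the annotated start (bases, horizontal axis) in the 12 genes that hold any; right, log2 ratio of scaled reads of *sadr1-26.6* and *sadr1-30.4* over Col-0 for the same genes, with the dashed line at 1.5-fold lower. The lower 2 rows, *UGGT* and *HRD3A*, hold an ERSE and lie right of the dashed line in both suppressors, while the other 10 lie left of it in both.

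BIP is the HSP70 of the ER lumen, and all 8 genes of the HSP70 group were lower in both suppressors than in Col-0 and than in *ADR1-L2 DV*. *BIP1* (AT5G28540, chromosome 5, 10540123 to 10543558) had 11385 scaled reads in *ADR1-L2 DV*, 6509.7 in *sadr1-26.6*, 6030.3 in *sadr1-30.4* and 13147 in Col-0. *BIP2* (AT5G42020, chromosome 5, 16807342 to 16810693) had 9526 scaled reads in *ADR1-L2 DV*, 4772 in *sadr1-26.6*, 3984 in *sadr1-30.4* and 9441 in Col-0. Their coding sequences were 95.8% identical, with a longest shared run of 323 bases, so reads may have been divided between them and the sum is the firmer value. The sum had a log2 ratio to Col-0 of -0.11 (-0.14 to -0.08) in *ADR1-L2 DV*, -1.00 (-1.04 to -0.97) in *sadr1-26.6* and -1.17 (-1.21 to -1.14) in *sadr1-30.4*. Against *ADR1-L2 DV*, the summed ratio was -0.89 in *sadr1-26.6* and -1.06 in *sadr1-30.4*. For the summed pair, both suppressors were thus lower than either of the other genotypes.

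*BIP3* (AT1G09080, chromosome 1, 2929217 to 2931850) encodes the BIP that is little used in unstressed plants and is known for its strong rise under ER stress. It had 1014 scaled reads in *ADR1-L2 DV*, 419.7 in *sadr1-26.6*, 399 in *sadr1-30.4* and 1086 in Col-0. The log2 ratio to Col-0 was -0.10 (-0.22 to 0.02) in *ADR1-L2 DV*, -1.37 (-1.54 to -1.20) in *sadr1-26.6* and -1.44 (-1.62 to -1.28) in *sadr1-30.4*. These were the lowest suppressor ratios of the 38. Per kilobase of coding sequence, the *BIP3* level in Col-0 was 535 scaled reads, against 6541 for *BIP1*. *BIP3* shares 70.4% of its coding sequence with *BIP1* and no identical run longer than 20 bases with it.

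The partners of BIP were also lower in both suppressors. *AT4G16660* encodes an HSP70 family protein and had 5137 scaled reads in *ADR1-L2 DV*, 3358 in *sadr1-26.6*, 3041 in *sadr1-30.4* and 5088 in Col-0. Its ratios to Col-0, -0.60 (-0.66 to -0.53) in *sadr1-26.6* and -0.74 (-0.81 to -0.68) in *sadr1-30.4*, were the smallest of the group in size, and its ratio in *sadr1-26.6* was just past the limit. The J-domain proteins stimulate the ATPase of BIP. *ERDJ3B*, whose protein works with SDF2 and BIP on the cell surface receptor EFR, had 3007 scaled reads in *ADR1-L2 DV*, 1504 in *sadr1-26.6*, 1411 in *sadr1-30.4* and 2936 in Col-0. *SDF2* had 1542 scaled reads in *ADR1-L2 DV*, 903 in *sadr1-26.6*, 931 in *sadr1-30.4* and 1584 in Col-0. Both genes of this complex were level with Col-0 in *ADR1-L2 DV* (0.03 for *ERDJ3B* and -0.04 for *SDF2*). Over Col-0, *ERDJ3B* stood at -0.96 in *sadr1-26.6* and -1.06 in *sadr1-30.4*, and *SDF2* at -0.81 in *sadr1-26.6* and -0.77 in *sadr1-30.4*.

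*P58IPK*, another lumenal J-domain protein, had 1176 scaled reads in *ADR1-L2 DV*, 631 in *sadr1-26.6*, 577 in *sadr1-30.4* and 1137 in Col-0, with ratios to Col-0 of -0.85 (-1.00 to -0.70) in *sadr1-26.6* and -0.98 (-1.13 to -0.83) in *sadr1-30.4*. *ERDJ3A* had 360.2 scaled reads in *ADR1-L2 DV*, 153 in *sadr1-26.6*, 170.4 in *sadr1-30.4* and 291 in Col-0. *ERDJ3A* had the highest ratio of the group in *ADR1-L2 DV* over Col-0, at 0.31 (0.09 to 0.53), and its intervals were wide because few reads fell in it. *P58IPK* and *ERDJ3A* each share exon bases with a gene on the opposite strand, 56 for *P58IPK* and 9 for *ERDJ3A*, and whether strand was used in counting is not given in the sources used here.

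**Figure D3:**
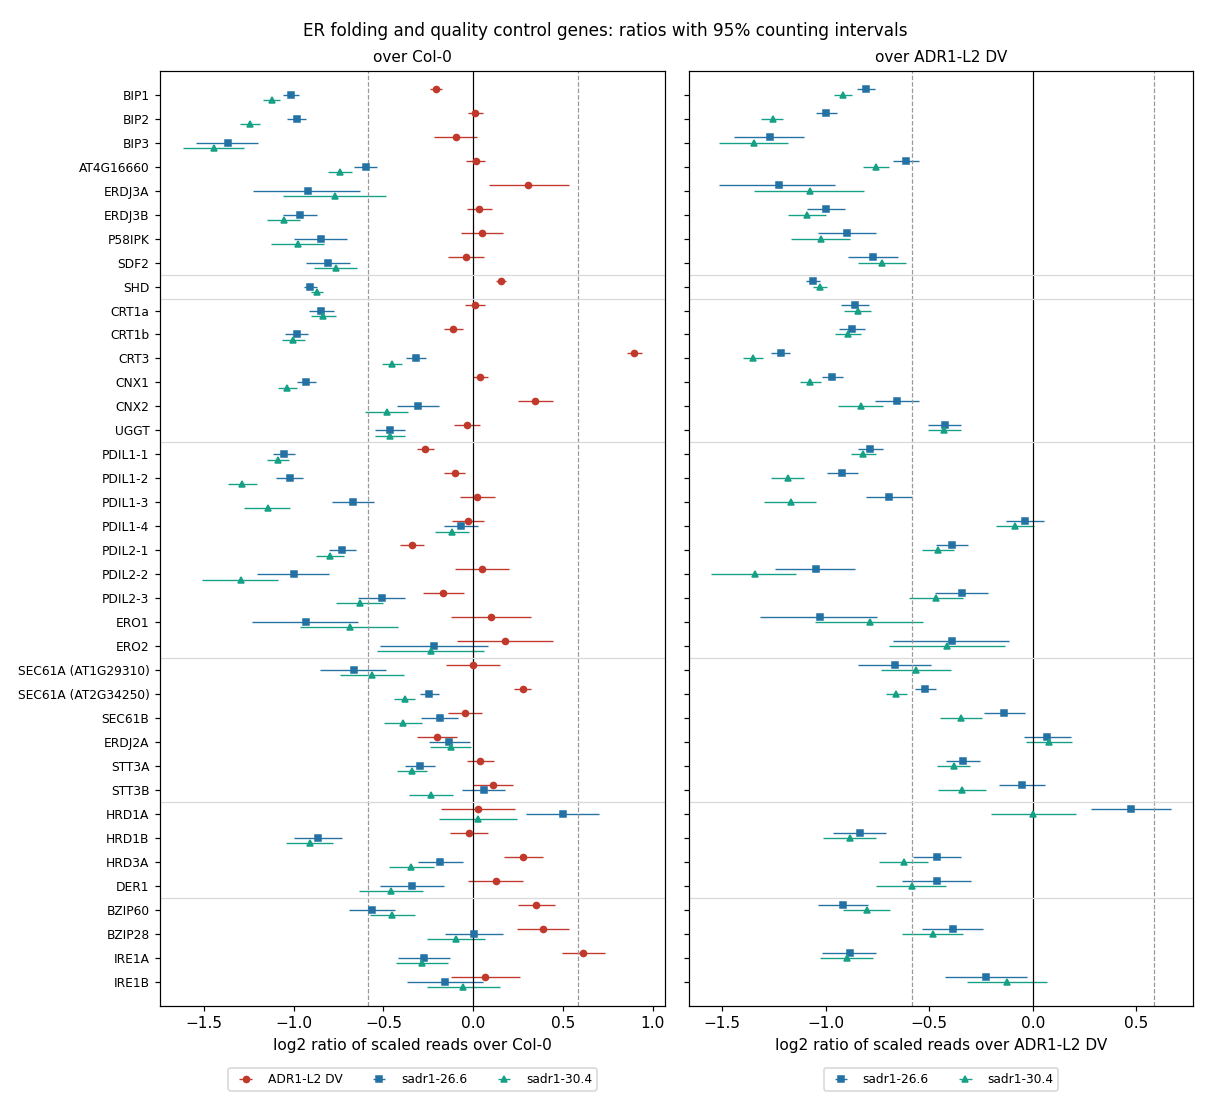
Log2 ratio of scaled reads (horizontal axis) for each of the 38 genes (rows, by role), left over Col-0 for *ADR1-L2 DV*, *sadr1-26.6* and *sadr1-30.4* and right over *ADR1-L2 DV* for the suppressors; bars are 95% counting intervals and dashed lines mark 1.5-fold. In the upper rows, from *BIP1* to *SHD*, both suppressors lie past the left dashed line in both panels, whereas *CRT3* and *IRE1A* alone lie past the right dashed line in *ADR1-L2 DV*.

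*SHD* (SHEPHERD) encodes the HSP90 of the ER, known to be needed for CLAVATA proteins, and gave the highest level per kilobase of coding sequence in Col-0, at 7796 scaled reads. It had 21462 scaled reads in *ADR1-L2 DV*, 10267 in *sadr1-26.6*, 10536 in *sadr1-30.4* and 19272 in Col-0. The log2 ratio was 0.16 (0.13 to 0.18) for *ADR1-L2 DV* over Col-0, -0.91 (-0.94 to -0.87) for *sadr1-26.6* over Col-0 and -0.87 (-0.91 to -0.84) for *sadr1-30.4* over Col-0. *SHD* stood slightly above Col-0 in *ADR1-L2 DV* and well below it in the suppressors.

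The calreticulins and calnexins hold glycoproteins while they fold, and here the genes separated. *CRT1a* had 5015 scaled reads in *ADR1-L2 DV*, 2764 in *sadr1-26.6*, 2788 in *sadr1-30.4* and 4974 in Col-0. *CRT1b* had 5742 scaled reads in *ADR1-L2 DV*, 3135 in *sadr1-26.6*, 3093 in *sadr1-30.4* and 6196 in Col-0. These 2 general calreticulins, 83.4% identical in coding sequence, were close to Col-0 in *ADR1-L2 DV* (0.01 for *CRT1a* and -0.11 for *CRT1b*) and lower in the suppressors. In *sadr1-26.6* the ratios to Col-0 were -0.85 for *CRT1a* and -0.98 for *CRT1b*, and in *sadr1-30.4* they were -0.83 for *CRT1a* and -1.00 for *CRT1b*. *CNX1* had 9332 scaled reads in *ADR1-L2 DV*, 4765 in *sadr1-26.6*, 4427 in *sadr1-30.4* and 9079.9 in Col-0, with the same pattern and ratios to Col-0 of -0.93 (-0.98 to -0.88) in *sadr1-26.6* and -1.04 (-1.09 to -0.98) in *sadr1-30.4*.

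*CRT3* (AT1G08450, chromosome 1, 2667798 to 2671957) encodes the plant-specific calreticulin known for folding EFR and for holding back defective brassinosteroid receptors. It had 11952 scaled reads in *ADR1-L2 DV*, 5134 in *sadr1-26.6*, 4676 in *sadr1-30.4* and 6410.3 in Col-0. The ratio of *ADR1-L2 DV* over Col-0 was 0.90 (0.86 to 0.94), a fold of 1.86 and the highest of the 38. Per kilobase of coding sequence *CRT3* had the highest level of all 38 in *ADR1-L2 DV*, at 9374 scaled reads, above *SHD* at 8682, whereas in Col-0 it had 5028. The suppressors were lower than *ADR1-L2 DV*, at -1.22 in *sadr1-26.6* and -1.35 in *sadr1-30.4*, and were below Col-0 by less than 1.5-fold, at -0.32 (-0.38 to -0.27) in *sadr1-26.6* and -0.45 (-0.51 to -0.40) in *sadr1-30.4*. *CRT3* thus differed from *CRT1a*, *CRT1b* and *CNX1* in where its high value lay: in *ADR1-L2 DV* alone rather than in *ADR1-L2 DV* and Col-0 alike.

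*CNX2* took a place between these patterns, with 1849.6 scaled reads in *ADR1-L2 DV*, 1175 in *sadr1-26.6*, 1040.2 in *sadr1-30.4* and 1454 in Col-0. It was higher in *ADR1-L2 DV* than in Col-0 by less than 1.5-fold, at 0.35 (0.25 to 0.44), and was lower than Col-0 in the suppressors by less than 1.5-fold (-0.31 in *sadr1-26.6* and -0.48 in *sadr1-30.4*), but passed the limit against *ADR1-L2 DV* (-0.65 for *sadr1-26.6* and -0.83 for *sadr1-30.4*). Its coding sequence was 82.1% identical to that of *CNX1*, with a longest shared run of 44 bases. *UGGT*, the glucosyltransferase that sends misfolded glycoproteins back to the lectins, had 2879 scaled reads in *ADR1-L2 DV*, 2144 in *sadr1-26.6*, 2140.3 in *sadr1-30.4* and 2952 in Col-0 and passed the limit in no pair, with a ratio to Col-0 of -0.46 in both suppressors.

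Protein disulfide isomerases form and rearrange disulfide bonds and ERO1 and ERO2 reoxidise them. Of these 9 genes, 6 were lower in *sadr1-26.6* than in Col-0 and 7 in *sadr1-30.4*, and none passed the limit in *ADR1-L2 DV*. *PDIL1-1* had 5928 scaled reads in *ADR1-L2 DV*, 3438 in *sadr1-26.6*, 3359 in *sadr1-30.4* and 7135 in Col-0. *PDIL1-2* had 4179 scaled reads in *ADR1-L2 DV*, 2209 in *sadr1-26.6*, 1839.7 in *sadr1-30.4* and 4489.6 in Col-0. These genes, 81.3% identical in coding sequence, had ratios of *ADR1-L2 DV* over Col-0 of -0.27 for *PDIL1-1* and -0.10 for *PDIL1-2*, and only that of *PDIL1-1* stayed below 0 with scaling by the totals. Over Col-0, *PDIL1-1* stood at -1.05 (-1.11 to -0.99) in *sadr1-26.6* and -1.09 (-1.15 to -1.03) in *sadr1-30.4*, and *PDIL1-2* at -1.02 (-1.10 to -0.95) in *sadr1-26.6* and -1.29 (-1.37 to -1.21) in *sadr1-30.4*.

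*PDIL1-3* had 1673 scaled reads in *ADR1-L2 DV*, 1034 in *sadr1-26.6*, 743 in *sadr1-30.4* and 1645 in Col-0. It showed the largest difference between the suppressors among the 38, with a log2 ratio of -0.48 (-0.62 to -0.34) for *sadr1-30.4* over *sadr1-26.6*, short of 1.5-fold, while over Col-0 it stood at -0.67 in *sadr1-26.6* and -1.15 in *sadr1-30.4*. *PDIL2-2*, another isomerase, had 691 scaled reads in *ADR1-L2 DV*, 333 in *sadr1-26.6*, 272 in *sadr1-30.4* and 668 in Col-0, and its ratios to Col-0 were -1.00 (-1.20 to -0.80) in *sadr1-26.6* and -1.29 (-1.51 to -1.09) in *sadr1-30.4*. *ERO1* had 325 scaled reads in *ADR1-L2 DV*, 159 in *sadr1-26.6*, 188 in *sadr1-30.4* and 303 in Col-0, and its ratios to Col-0 were -0.93 (-1.23 to -0.64) in *sadr1-26.6* and -0.69 (-0.97 to -0.42) in *sadr1-30.4*. *PDIL1-3*, *PDIL2-2* and *ERO1* were level with Col-0 in *ADR1-L2 DV*, at 0.02 for *PDIL1-3*, 0.05 for *PDIL2-2* and 0.10 for *ERO1*.

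*PDIL2-1* was lower in *ADR1-L2 DV* than in Col-0 to the largest extent among the 38, at -0.34 (-0.41 to -0.27). Its levels were 3063 scaled reads in *ADR1-L2 DV*, 2337 in *sadr1-26.6*, 2229 in *sadr1-30.4* and 3874 in Col-0, so that both suppressors were past the limit against Col-0 but not against *ADR1-L2 DV*, with -0.39 for *sadr1-26.6* and -0.46 for *sadr1-30.4*. Over Col-0 it stood at -0.73 in *sadr1-26.6* and -0.80 in *sadr1-30.4*. It was the single gene of the 19 that passed the limit against Col-0 but not *ADR1-L2 DV*, and 97 of its exon bases overlap a gene on the opposite strand, which had between 2 and 6 reads in each genotype. *PDIL2-3* had 1116 scaled reads in *ADR1-L2 DV*, 879 in *sadr1-26.6*, 807 in *sadr1-30.4* and 1252 in Col-0 and passed the limit in *sadr1-30.4* over Col-0 alone, at -0.63 (-0.77 to -0.50). *PDIL1-4* and *ERO2* passed it in no pair: *PDIL1-4* stayed between 1778 scaled reads in *sadr1-30.4* and 1927 in Col-0, and *ERO2* between 179.7 in *sadr1-30.4* and 239.6 in *ADR1-L2 DV*.

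**Figure D4:**
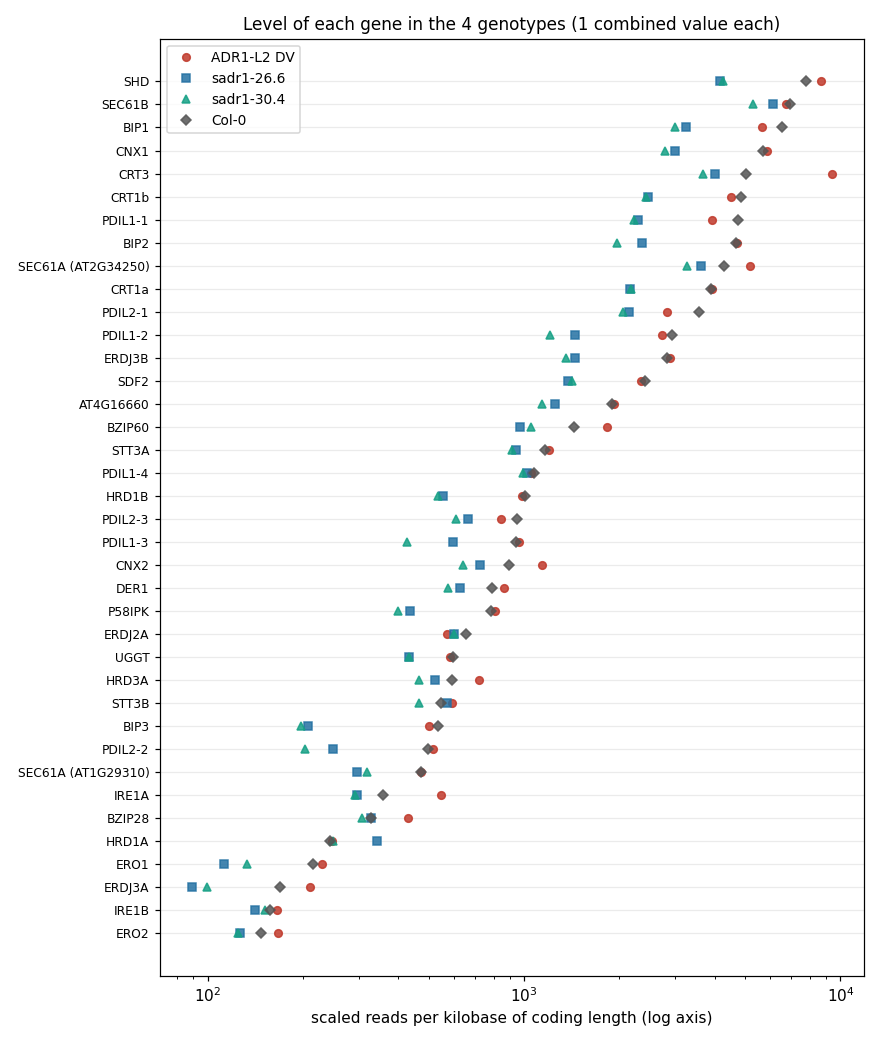
Scaled reads per kilobase of coding length (horizontal log axis) of the 38 genes (rows, ordered by level in Col-0) in *ADR1-L2 DV*, *sadr1-26.6*, *sadr1-30.4* and Col-0, with 1 combined value each. For most of the abundant chaperones the red and dark grey points lie together and the blue and green points lie to their left, and *CRT3* in *ADR1-L2 DV* has the highest value of the plot, 9374.

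In the group of translocation and N-glycosylation, which act before folding, 1 of 6 was lower in *sadr1-26.6* than in Col-0 and none was in *sadr1-30.4*. Over *ADR1-L2 DV*, 1 of 6 was lower in each suppressor. *SEC61A* AT1G29310, 1 of the 2 genes listed for the channel subunit, had 672 scaled reads in *ADR1-L2 DV*, 423 in *sadr1-26.6*, 454 in *sadr1-30.4* and 672 in Col-0, and was lower than Col-0 in *sadr1-26.6*, at -0.67 (-0.85 to -0.48), and just short of the limit in *sadr1-30.4*, at -0.56 (-0.74 to -0.39). Over *ADR1-L2 DV* it stood at -0.67 in *sadr1-26.6*, past the limit, and -0.56 in *sadr1-30.4*, short of it. *SEC61A* AT2G34250, the more abundant copy, had 7401 scaled reads in *ADR1-L2 DV*, 5161 in *sadr1-26.6*, 4686 in *sadr1-30.4* and 6110.1 in Col-0. It passed the limit in *sadr1-30.4* over *ADR1-L2 DV* alone, at -0.66 (-0.71 to -0.61). The 2 copies were 88.7% identical in coding sequence, so part of their difference may lie in how reads were assigned, which was not tested.

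*SEC61B* AT2G45070, *ERDJ2A* of the SEC63 type and *STT3A* and *STT3B*, the catalytic subunits of the oligosaccharyltransferase, passed the limit in no pair. *STT3A*, which is needed for the glycosylation of EFR, had ratios to Col-0 of 0.04 in *ADR1-L2 DV*, of -0.30 in *sadr1-26.6* and of -0.34 in *sadr1-30.4*. *ERDJ2A* had 1177 scaled reads in *ADR1-L2 DV*, 1235 in *sadr1-26.6*, 1243 in *sadr1-30.4* and 1355 in Col-0. Over Col-0, the ratios of *ERDJ2A* were -0.20 for *ADR1-L2 DV*, -0.13 for *sadr1-26.6* and -0.12 for *sadr1-30.4*, all near 0.

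In ERAD, 1 of the 4 genes was lower than Col-0 in each suppressor, *HRD1B* in both. *HRD1B*, a ubiquitin ligase of the ER membrane, had 1365 scaled reads in *ADR1-L2 DV*, 764 in *sadr1-26.6*, 739 in *sadr1-30.4* and 1389.9 in Col-0, with ratios to Col-0 of -0.86 (-1.00 to -0.73) in *sadr1-26.6* and -0.91 (-1.05 to -0.78) in *sadr1-30.4*. Its paralogue *HRD1A* had 366 scaled reads in *ADR1-L2 DV*, 508 in *sadr1-26.6*, 367 in *sadr1-30.4* and 359 in Col-0. *HRD1A* was the only member whose *sadr1-26.6* value was the highest of the 4 genotypes by a margin beyond its counting interval, at 0.50 (0.30 to 0.70) over Col-0 and 0.47 (0.28 to 0.66) over *ADR1-L2 DV*, both short of 1.5-fold, and this was not shared by *sadr1-30.4*, which stood at 0.03 (-0.19 to 0.25) over Col-0.

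*HRD3A*, the adaptor that brings clients to HRD1, had 1462 scaled reads in *ADR1-L2 DV*, 1061 in *sadr1-26.6*, 948 in *sadr1-30.4* and 1204 in Col-0. *DER1*, a derlin of the ERAD channel, had 692 scaled reads in *ADR1-L2 DV*, 501 in *sadr1-26.6*, 461 in *sadr1-30.4* and 634 in Col-0. Both passed the limit in *sadr1-30.4* over *ADR1-L2 DV* alone, at -0.62 (-0.74 to -0.51) for *HRD3A* and -0.59 (-0.76 to -0.42) for *DER1*. The value of *DER1* lay on the limit itself and was short of it with the upper quartile, at -0.54.

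Of the 4 sensors and transcription factors, none was lower than Col-0 by 1.5-fold in either suppressor, and *bZIP60* and *IRE1A* were lower than *ADR1-L2 DV* in both. *IRE1A* (AT2G17520, chromosome 2, 7617151 to 7621129), the kinase and RNase that splices *bZIP60*, had 1378 scaled reads in *ADR1-L2 DV*, 746 in *sadr1-26.6*, 739 in *sadr1-30.4* and 901 in Col-0. It was higher in *ADR1-L2 DV* than in Col-0, at 0.61 (0.49 to 0.73), with a lower bound under the 1.5-fold limit, and it was just short of that limit when scaled by the upper quartile. In the suppressors it was lower than in *ADR1-L2 DV*, at -0.89 (-1.02 to -0.76) in *sadr1-26.6* and -0.90 (-1.03 to -0.77) in *sadr1-30.4*. Over Col-0 it stood at -0.27 in *sadr1-26.6* and -0.29 in *sadr1-30.4*. *IRE1B*, its paralogue with 52.8% identity in coding sequence, had 440.1 scaled reads in *ADR1-L2 DV*, 377 in *sadr1-26.6*, 404 in *sadr1-30.4* and 419.7 in Col-0 and passed the limit in no pair.

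*bZIP60* (AT1G42990, chromosome 1, 16135723 to 16137463) had 1628 scaled reads in *ADR1-L2 DV*, 862 in *sadr1-26.6*, 933 in *sadr1-30.4* and 1275 in Col-0. Its ratio was 0.35 (0.25 to 0.46) for *ADR1-L2 DV* over Col-0, and against Col-0 it was -0.56 (-0.69 to -0.43) in *sadr1-26.6*, just short of the limit, and -0.45 (-0.58 to -0.33) in *sadr1-30.4*. Against *ADR1-L2 DV* the suppressors were lower, at -0.92 in *sadr1-26.6* and -0.80 in *sadr1-30.4*. *bZIP28* had 869 scaled reads in *ADR1-L2 DV*, 665 in *sadr1-26.6*, 621 in *sadr1-30.4* and 663 in Col-0, the suppressors being level with Col-0 within the counting intervals. Reads per gene do not separate spliced from unspliced *bZIP60* or cleaved from membrane-bound bZIP28, so the activity of the 2 factors was not measured.

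Sorted by pattern, the 38 genes fell into a few groups. The 18 genes lower in both suppressors than in both other genotypes were all 8 of the HSP70 group, *SHD*, *CRT1a*, *CRT1b*, *CNX1*, *PDIL1-1*, *PDIL1-2*, *PDIL1-3*, *PDIL2-2*, *ERO1* and *HRD1B*. All 18 were level between *ADR1-L2 DV* and Col-0 with the main scaling. This depends on the scaling: with the column totals, *SHD* at 0.37 and *ERDJ3A* at 0.52 would not be level. Another 4, *CRT3*, *CNX2*, *bZIP60* and *IRE1A*, were lower in both suppressors than in *ADR1-L2 DV* but in neither than in Col-0. In 10 genes neither suppressor was lower than *ADR1-L2 DV* or Col-0: *UGGT*, *PDIL1-4*, *ERO2*, *SEC61B*, *ERDJ2A*, *STT3A*, *STT3B*, *HRD1A*, *bZIP28* and *IRE1B*. The remaining 6 were *PDIL2-1*, lower than Col-0 in both, and *PDIL2-3*, both copies of *SEC61A*, *HRD3A* and *DER1*, which passed the limit in some pairs only. The shares of all genes that would fall into these groups were not counted. *PR1* also had its lowest values in the suppressors, with log2 ratios to Col-0 of -0.89 in *sadr1-26.6* and -2.52 in *sadr1-30.4*, whereas its ratio in *ADR1-L2 DV* was 0.78. The mesophyll markers had their lowest sum in *ADR1-L2 DV*. The part of *PR1* or of the cell type markers in the results was not tested.

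Further genes of the pathway, 40 in lists of the same chosen kind of which 38 passed the floor, were counted in the same way. Over Col-0, 2 of the 38 were lower in *sadr1-26.6*, where 3.7% of all genes were, and 5 in *sadr1-30.4*, where 3.67% of all genes were, and none was higher in either. In *ADR1-L2 DV*, 2 were higher than in Col-0 and none was lower, against 12.3% higher and 14.8% lower among all genes. Over *ADR1-L2 DV*, 8 were lower and 1 (*DAD2*, on the limit) was higher in *sadr1-26.6*, against 12.9% lower and 15.2% higher among all genes. In *sadr1-30.4*, 12 were lower than in *ADR1-L2 DV* and none higher, against 16.1% lower and 17.6% higher among all genes. The medians over Col-0 were 0.15 for *ADR1-L2 DV*, -0.13 for *sadr1-26.6* and -0.18 for *sadr1-30.4*.

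Among the further regulators, *bZIP17*, a membrane factor related to bZIP28, had 1482 scaled reads in *ADR1-L2 DV*, 764 in *sadr1-26.6*, 718 in *sadr1-30.4* and 812 in Col-0. *NAC062*, a membrane-bound NAC factor of the ER stress response, had 808 scaled reads in *ADR1-L2 DV*, 388 in *sadr1-26.6*, 382 in *sadr1-30.4* and 448 in Col-0. These were the 2 genes higher in *ADR1-L2 DV* than in Col-0, at 0.87 (0.74 to 0.99) for *bZIP17* and 0.85 (0.69 to 1.02) for *NAC062*. Over Col-0, *bZIP17* stood at -0.09 in *sadr1-26.6* and -0.18 in *sadr1-30.4*, and *NAC062* at -0.20 in *sadr1-26.6* and -0.23 in *sadr1-30.4*. *BAG7*, an ER co-chaperone, had a ratio of 0.43 (0.32 to 0.55) in *ADR1-L2 DV* over Col-0, and *bZIP49* and *NAC103* were under the floor.

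Of the genes of glycosylation and glycan trimming, none of 13 passed the limit in either suppressor over Col-0. The largest differences of *ADR1-L2 DV* from Col-0 in that list were -0.56 (-0.89 to -0.25) for *DAD2*, 0.20 (0.10 to 0.30) for *OST1A* and 0.18 (0.08 to 0.29) for *DGL1*, all of the oligosaccharyltransferase. Among translocation and signal peptide genes the largest were 0.41 (0.18 to 0.63) for *SEC61B* AT3G60540, 0.39 (0.05 to 0.74) for *SEC61G* AT3G48570 and 0.28 (0.07 to 0.49) for the signal peptidase subunit AT5G27430. Among other ERAD and retrieval genes they were 0.53 (0.23 to 0.84) for *ERD2A*, the receptor that returns ER proteins from the Golgi, 0.45 (0.41 to 0.48) for *CDC48A*, the ATPase that extracts ERAD clients, and 0.39 (0.26 to 0.53) for *UBC32*, an ubiquitin-conjugating enzyme. All of these were under 1.5-fold.

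Genes outside the naming rule were picked after their values were seen. *TIN1*, known to be induced by the ER stress agent tunicamycin, had 391 scaled reads in *ADR1-L2 DV*, 173 in *sadr1-26.6*, 184 in *sadr1-30.4* and 383 in Col-0, and its ratios to Col-0 were 0.03 (-0.17 to 0.23) in *ADR1-L2 DV*, -1.15 (-1.43 to -0.88) in *sadr1-26.6* and -1.06 (-1.33 to -0.80) in *sadr1-30.4*. The small channel subunit *SEC61G* AT5G50460 had 957 scaled reads in *ADR1-L2 DV*, 609.6 in *sadr1-26.6*, 483 in *sadr1-30.4* and 1028 in Col-0 and was the other gene of these lists that was lower than Col-0 in *sadr1-26.6*, at -0.75 (-0.91 to -0.60). Both genes were level between *ADR1-L2 DV* and Col-0 and lower in both suppressors. The other 3 genes of the lists that were lower in *sadr1-30.4* than in Col-0 were *SEC61B* AT3G60540 at -0.97, *SEC61G* AT4G24920 at -0.72 and *EBS7*, an ERAD component, at -0.67.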

How the data were processed

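Leaf RNA of the 4 genotypes was sequenced by the authors, whose processing notes name the TAIR10 build; no aligner, counting tool or strand setting was named in the sources used here. A deposited table holds 28496 genes. Its 4 columns headed RPKM were treated as read counts, 1 per gene and genotype, since the deposited values are whole numbers, sum to at least 20013826 per column and rise with coding length (in Col-0, medians of 305, 330.5, 395 and 548 in 4 equal bins of length, short to long); how 3 samples were combined is not stated. If they were averaged, the counting intervals are too wide. Another 6 columns hold the authors' own log2 fold changes and false discovery rates and were not used.

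Counts were scaled by the median of ratios over 19434 genes with reads in every genotype. Ratios used a pseudocount of 1, and intervals were exact Clopper-Pearson (95%, SciPy 1.17.1), which cover counting error only. Genes with a mean of at least 50 scaled reads entered the counts of genes past 1.5-fold. TMM factors came from edgeR 4.0.16. With 1 value per genotype in the columns used, no test was run. The members and lists were chosen with earlier results of these data known. The text gives full values for members past 1.5-fold in any pair and for BIP1 to BIP3, CRT3, bZIP60, IRE1A, IRE1B and SDF2, and up to 3 genes for each further list, those with the largest difference between *ADR1-L2 DV* and Col-0. Outside this rule, *TIN1*, *EBS7* and the *SEC61G* genes AT5G50460 and AT4G24920 were picked after their values were seen. The steps were tested on simulated data. Promoter windows came from TAIR10.1, read by its own RefSeq annotation. Alternatives were other scalings, fold limits, floors and pseudocounts.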

Additional observations from a re-analysis of the deposited data

How the results depend on the processing

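No paired analysis was possible because the columns used give 1 combined value per genotype, and for the same reason no replicate could be left out. No ratio past 1.5-fold changed direction under any alternative that was run; of smaller ratios, 19 changed sign with the column totals and 11 with the upper quartile, and 0 with TMM. Scaling by TMM, a pseudocount of 0.5 or 5, no floor and a floor of 200 scaled reads left all 12 counts of genes past 1.5-fold within 1.5 times. Scaling by the column totals shifted every log2 ratio of *ADR1-L2 DV* over Col-0 by 0.21, of *sadr1-26.6* over *ADR1-L2 DV* by -0.26 and of *sadr1-30.4* over *ADR1-L2 DV* by -0.24, and moved 110 of 234 ratios and medians beyond their counting intervals, while the upper quartile moved 3. The number of genes higher in *ADR1-L2 DV* than in Col-0, 2, became 3 with the column totals and 1 with the upper quartile. It became 1 where the counting bound had to pass 1.5-fold and 0 at a limit of 2-fold. At a looser limit of 0.32 on the log2 scale it became 5, and 1 gene was also lower. At 2-fold, the genes lower than *ADR1-L2 DV* numbered 6 in *sadr1-26.6* (23 at 1.5-fold) and 11 in *sadr1-30.4* (25 at 1.5-fold). Of all genes, 5.71% were lower than *ADR1-L2 DV* by 2-fold in *sadr1-26.6* and 7.88% in *sadr1-30.4*. Those of the 38 lower than Col-0 by 2-fold numbered 5 in *sadr1-26.6* and 10 in *sadr1-30.4* (20 at 1.5-fold in both). Of all genes, 0.977% were lower than Col-0 by 2-fold in *sadr1-26.6* and 1.17% in *sadr1-30.4*. At the looser limit, 1 gene was higher in *sadr1-26.6* than in *ADR1-L2 DV*, 1 was higher in *sadr1-26.6* than in Col-0, and 2 were lower in *sadr1-30.4* than in *sadr1-26.6*. The shares of all genes past the looser limit were not counted. Without the correction for coding length, 34 of the 38 genes changed place in the order of levels in Col-0. These changes follow from the limits and scalings themselves. Depth limits *ERDJ3A*, *ERO1* and *ERO2* most, the members with the fewest reads, and the spread between plants could not be measured from these columns.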
